A study of Rattus norvegicus with 6 samples.

Results

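The glycolysis and glycogen enzymes of skeletal muscle are 35 genes listed by symbol: the enzymes that store and break down glycogen, those that carry glucose phosphate to pyruvate, and 5 genes of connected branches. Members were rows of the deposited table whose gene name equals a listed symbol, which gave 36 rows of 30957, because Pkm stands in 2 rows. A low-count filter left 35 of the 36 rows in the test. Each of those rows had at least 21 counts in every control library, so none entered through the ACS group alone. The row that was not tested, Fbp1, the liver-type fructose-1,6-bisphosphatase, had 0 counts in all 6 libraries, and the limit that a count of 0 allows (3 counts per library) was 0.143 to 0.209 CPM of the library total. By role the list divides into a glycogen arm of 15 genes, a glycolytic arm of 15 genes in 16 rows, and a branch list of 5 genes.

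The series measured ribosomal-RNA-depleted total RNA of the flexor digitorum longus, a toe flexor of the hind limb, in wild-type Sprague-Dawley rats. Of the 6 libraries, 3 were labelled control at 0 h and 3 were labelled ACS at 18 h, where ACS is acute osteofascial compartment syndrome, raised pressure within a closed muscle compartment. It was produced by ligating the leg at the knee through the skin with a band of low elasticity, so the model includes the effect of a ligature as well as that of pressure. The treatment field reads ACS for all 6 libraries, so the groups rest on the titles. The groups also differ in time, so condition and time cannot be told apart. The labels do not give age or sex. They also do not say that each library came from its own rat, and the p-values below cover the spread among these libraries alone, which may be technical.

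Glycogen is the stored glucose of the muscle fibre. Glycogen phosphorylase, switched on by phosphorylase kinase, releases glucose 1-phosphate from it, phosphoglucomutase turns that into glucose 6-phosphate, and glycolysis breaks this down to pyruvate with a gain of ATP that needs no oxygen. Most steps are encoded by several genes. Adult muscle, above all its fast fibres, uses those here called muscle isoforms (Pygm, Pfkm, Aldoa, Pgam2, Eno3). The others (Pygb, Pygl, Pfkl, Pfkp, Aldoc, Pgam1, Eno1) are used more in other tissues or dividing cells. Aldoa is not confined to muscle, so Aldoa and Aldoc are not a pair of a muscle and a ubiquitous gene.

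Promoters of the 2 isoform pairs described most below are shown, because their CG content differed between the muscle and the ubiquitous gene. The stretches are the 250 bases before the annotated gene start, from RefSeq on build GRCr8, printed 5′ to 3′ with every CG dinucleotide in capitals. Pgam2 lies at chr14:84897875-84898124 (minus strand) and Pgam1 at chr1:250672902-250673151 (plus strand), which are the muscle and the ubiquitous phosphoglycerate mutase. Eno3 lies at chr10:55868936-55869185 (plus strand) and Eno1, of whose 2 annotated starts the downstream one is printed, at chr5:166003111-166003360 (plus strand), which are the muscle and the ubiquitous enolase.
Pgam2: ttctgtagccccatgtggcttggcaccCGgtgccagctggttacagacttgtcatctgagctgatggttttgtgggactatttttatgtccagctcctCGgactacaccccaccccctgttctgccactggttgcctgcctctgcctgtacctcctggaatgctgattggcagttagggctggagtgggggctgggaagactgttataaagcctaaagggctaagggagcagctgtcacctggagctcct
Pgam1: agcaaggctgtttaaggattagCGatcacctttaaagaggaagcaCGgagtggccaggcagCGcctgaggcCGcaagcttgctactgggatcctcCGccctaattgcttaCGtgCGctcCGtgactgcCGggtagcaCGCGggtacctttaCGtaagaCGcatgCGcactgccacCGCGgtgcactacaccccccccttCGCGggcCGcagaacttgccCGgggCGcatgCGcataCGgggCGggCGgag
Eno3: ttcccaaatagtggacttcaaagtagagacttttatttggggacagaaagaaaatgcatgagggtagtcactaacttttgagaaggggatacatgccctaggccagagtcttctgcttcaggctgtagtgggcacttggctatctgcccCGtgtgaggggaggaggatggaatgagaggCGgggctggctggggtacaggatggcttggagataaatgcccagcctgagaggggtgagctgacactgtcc
Eno1: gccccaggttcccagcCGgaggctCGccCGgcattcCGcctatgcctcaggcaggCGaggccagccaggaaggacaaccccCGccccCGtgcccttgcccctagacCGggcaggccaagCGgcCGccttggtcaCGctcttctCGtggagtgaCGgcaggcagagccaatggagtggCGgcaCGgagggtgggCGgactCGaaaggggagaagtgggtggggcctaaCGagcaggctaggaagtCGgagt
The Pgam2 and Eno3 stretches hold 2 CG each, that of Pgam1 holds 25 and that of Eno1 holds 19 (11 at its upstream start). Over all 33469 RefSeq promoters of that length the median was 5, with quartiles of 2 and 15. A promoter was found for 31 of the 35 genes, with no entry for Pgk1, Gpd1, Fbp2 and Gpd1l. The contrast recurred for phosphofructokinase, with 4 in Pfkm, 19 in Pfkl and 18 in Pfkp, and for phosphorylase, with 5 in Pygm, 14 in Pygb and 22 in Pygl. Aldolase did not follow it: the 3 annotated starts of Aldoa held 3, 9 and 19, against 6 for Aldoc. Nor did Phka1, a muscle isoform of phosphorylase kinase, which held 23.

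Total counts ran from 14340865 to 21003928 per library. Fast-fibre markers took 106152 to 112261 CPM (counts scaled to a common library size with TMM, the trimmed mean of M values) in the controls; 10 of the 12 listed were in the table, and all 10 were tested. ACS replicate 1 stood apart: mitochondrially encoded transcripts made up 43.4% of its counts, against 7.52% to 8.60% in the controls and 4.82% and 5.33% in ACS replicates 2 and 3. The glycolysis and glycogen rows together held 4.38% to 4.53% of all counts in the controls, and 1.53%, 4.04% and 4.70% in ACS replicates 1, 2 and 3. Of the counts that were not mitochondrial they held 4.74% to 4.95% in the controls and 2.71%, 4.24% and 4.96% in the ACS libraries. In bulk RNA, fewer fibres and less RNA per fibre cannot be told apart. For the members, values without ACS replicate 1 are given below where leaving it out turned a sign or a call.

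No glycolysis or glycogen gene passed the test at 18 h of ACS in either direction. With edgeR's quasi-likelihood test at a Benjamini-Hochberg adjusted p of 0.05 over 12873 genes, 0 of 35 rows were called higher, where 3.43% of all genes were (442), and 0 were called lower, where 0.707% were (91). At an unadjusted p under 0.05, 4 rows were higher (Pygl, Pfkl, Pgam1 and Eno1), which is 11.4% against 15.5% of all genes, and 0 were lower, against 7.98%. limma-voom and limma on log2 FPKM also called 0 rows. DESeq2 called 3, namely Pgam1, Pfkl and Pygl, where it called 8.97% of all genes higher. The 95% interval of the log2 fold change lay within -1 to 1 for 7 rows, or 20.0% against 25.4% of all genes, so for the other 28 a change of 2-fold was not bounded by these data. Fold changes below are ACS over control, on the log2 scale.

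**Figure D1:**
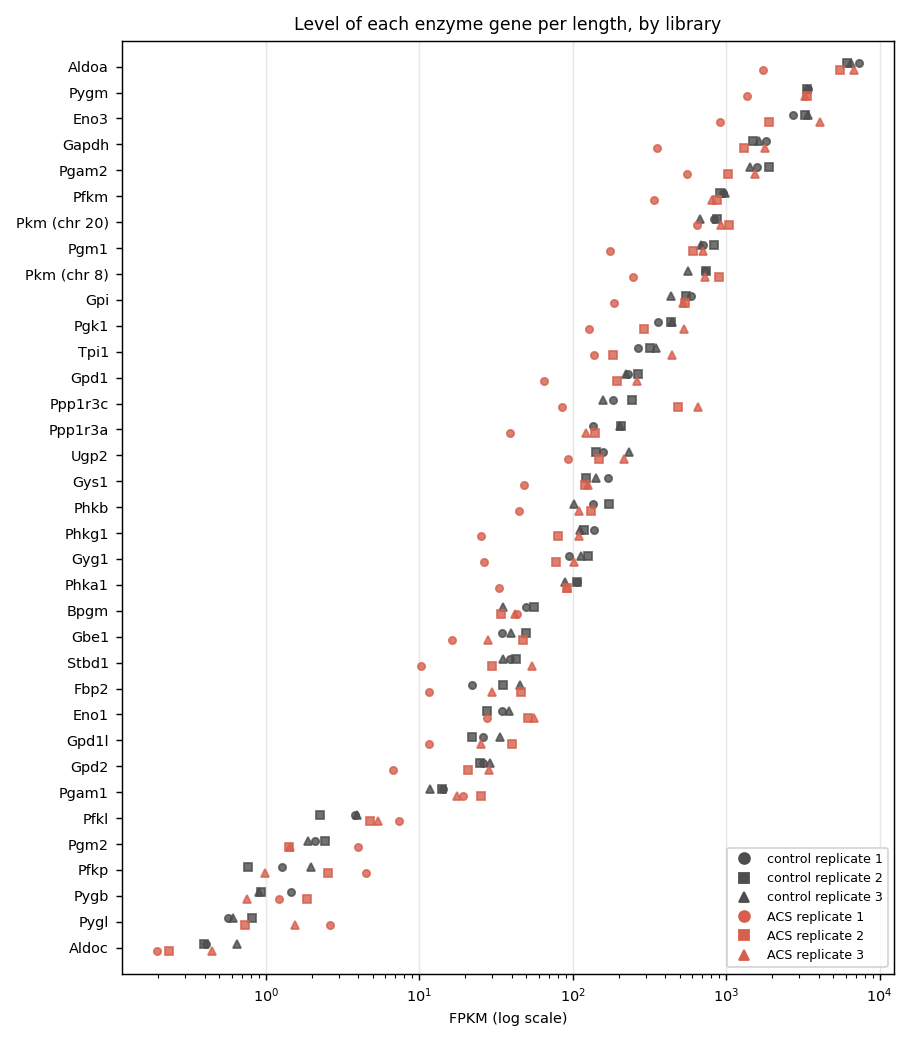
Expression of the 35 detected rows per length (FPKM, log axis) in each of the 6 libraries, ordered by level, with colour for the group and shape for the replicate. Levels span from under 1 FPKM (Pygl, Aldoc) to a control mean of 6647 FPKM (Aldoa), and for most rows the lowest symbol is ACS replicate 1 (FPKM is not TMM-scaled).

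The muscle isoforms were by far the more abundant member of each family. Per length, in FPKM, fragments scaled to gene length and library total, the controls averaged 6647 ± 635 (SD, n = 3) for Aldoa, the aldolase of muscle, 3391 ± 31.5 for Pygm, the muscle glycogen phosphorylase, and 3145 for Eno3. Pgam2 followed at 1639 and Pfkm, the muscle phosphofructokinase, at 950.1. The other isoforms were far lower, with control means of 33.7 FPKM for Eno1, 13.4 for Pgam1, 3.33 for Pfkl, 0.664 for Pygl and 0.486 for Aldoc. The muscle isoform therefore held 98.75% or more of the FPKM of its family in every control library, for each of the 5 families.

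In the glycogen arm the phosphorylase and its kinase had fold changes near or below 0 with wide intervals. Pygm (Rnor 6.0 chromosome 1, 221756286 to 221771143) had 9074, 8673 and 8429 CPM in the controls and 5293, 9610.3 and 9914 in ACS replicates 1 to 3, a log2 fold change of -0.08 (SE 0.412, adjusted p = 0.928 by edgeR), and 0.16 without ACS replicate 1. ACS replicate 1 lay below every control and the other ACS libraries lay above every control. The kinase's catalytic subunit of muscle, Phkg1, had 197, 166 and 151 CPM in the controls and 52.9, 124 and 181 in ACS (log2 -0.52, SE 0.417, adjusted p = 0.481 by edgeR). Phka1, its regulatory alpha subunit of muscle, was at -0.22 and Phkb, the beta subunit, at -0.26; without ACS replicate 1 they were at 0.06 and 0.0067. All 3 kinase subunits had their lowest value in ACS replicate 1.

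The synthesis side gave the same picture. Gyg1, glycogenin, the protein primer of a glycogen particle, had a log2 fold change of -0.44, Gys1, the muscle glycogen synthase, -0.29, Gbe1, the branching enzyme, -0.16 (0.06 without ACS replicate 1), and Ugp2, which makes UDP-glucose, 0.08. Gyg1 read 200.2, 257 and 225 CPM in the controls and 81.6, 177 and 245 in ACS. Pgm1, the phosphoglucomutase of muscle, read 1476, 1708 and 1357 CPM in the controls and 538, 1385 and 1708 in ACS, with a log2 fold change of -0.32, and 0.03 without ACS replicate 1. For both genes ACS replicate 1 was well below the controls and ACS replicate 3 was within or at the top of their range. Pgm2, a minor related enzyme, read 4.97, 5.61 and 4.21 CPM in the controls and 13.8, 3.65 and 3.91 in ACS. Its log2 fold change was 0.52 with ACS replicate 1 and -0.39 without it. Stbd1, a protein that tethers glycogen to membranes, was at -0.05, and at 0.32 without ACS replicate 1.

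The 2 glycogen-targeting subunits of protein phosphatase 1 in the list, which bring the phosphatase to glycogen synthase and phosphorylase, had fold changes of opposite sign. Ppp1r3a, the striated-muscle subunit, read 935, 1382 and 1323 CPM in the controls and 394, 1058 and 977 in ACS, a log2 fold change of -0.58 (SE 0.423, adjusted p = 0.435 by edgeR). Ppp1r3c, also called PTG (chromosome 1, 255371810 to 255376833), read 469, 606 and 376 CPM in the controls and 316, 1345 and 1916 in ACS. ACS replicate 1 was below every control and ACS replicates 2 and 3 were above the highest control. The log2 fold change of Ppp1r3c was 1.3 (SE 0.583, 95% interval -0.03 to 2.63, adjusted p = 0.22 by edgeR). Without ACS replicate 1 it was 1.75 (SE 0.296, adjusted p = 0.0137 by edgeR), the only row of the list called in that fit, where 4.99% of all genes were called higher.

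Pygl and Pygb, the liver and brain phosphorylases, were at low levels. Pygl (chromosome 6, 92597706 to 92643847) read 1.51, 2.08 and 1.53 CPM in the controls and 10.2, 2.11 and 4.69 in ACS. All ACS libraries were above all controls, though ACS replicate 2 was barely above the highest of them. The log2 fold change of Pygl was 1.71 (SE 0.563, 95% interval 0.43 to 3.0), with an adjusted p of 0.113 by edgeR and of 0.0386 by DESeq2, and 0.99 without ACS replicate 1. Pygl is also the phosphorylase of leukocytes, and ACS replicate 1, where it was highest, also held the most leukocyte transcripts: summed neutrophil markers (6 of 10 tested, 6 called higher, Mpo at no more than 0.145 CPM in any library) were 2.80 to 7.97 CPM in the controls and 413, 41.7 and 86.2 in ACS. Summed monocyte and macrophage markers (10 tested, 1 called higher, against 3.43% of all genes) were 49.1 to 82.4 CPM in the controls and 1808, 171 and 125 in ACS. Lyz2 alone gave 1553, 94.2 and 78.0 CPM of the ACS sums. Of the 10 markers, 5 had all ACS libraries above all controls (Lyz2, Cd14, Cd68, Itgam and C1qb). C1qa, Cd163, Csf1r and Mrc1 overlapped between groups, and Adgre1 was lower in every ACS library than in any control (log2 -1.30, not called). Summed fibroblast markers (7 tested, 0 called higher) were 709 to 1096 CPM in the controls and 2346, 2417 and 2998 in ACS. Summed endothelial markers (7 tested, 0 called higher) were 244 to 380 CPM in the controls and 530, 338 and 188 in ACS. The part of any of these cell types in the values of Pygl and of the isoforms below was not tested. Pygb read 5.56, 3.43 and 3.26 CPM in the controls and 6.83, 7.67 and 3.29 in ACS, with overlapping groups and a log2 fold change of 0.54.

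**Figure D2:**
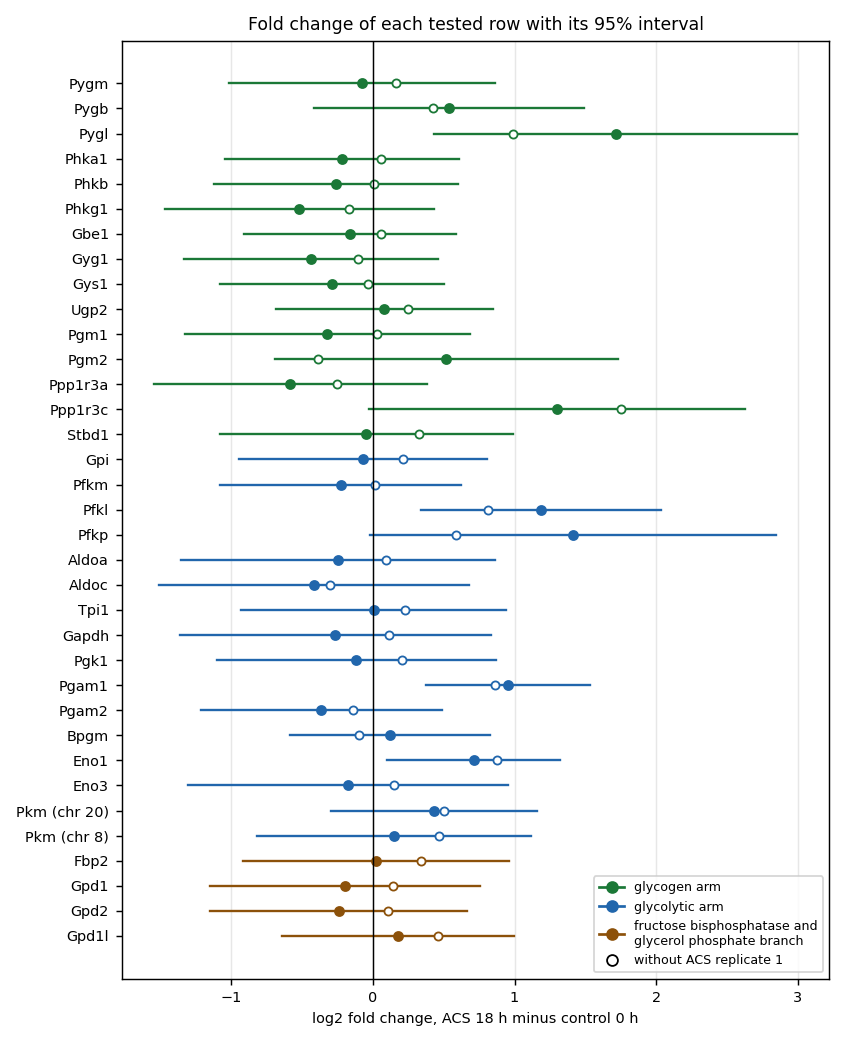
Log2 fold change of ACS over control for each tested row with its 95% interval, by arm, from edgeR's quasi-likelihood fit over all 6 libraries; open symbols are the values without ACS replicate 1. The intervals of most rows cross 0; those of Pygl, Pfkl, Pgam1 and Eno1 do not, with fold changes of 1.71, 1.19, 0.95 and 0.71.

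In the upper glycolytic arm the groups overlapped for the abundant enzymes. Gpi, glucose-6-phosphate isomerase, was at a log2 fold change of -0.07 (0.22 without ACS replicate 1) and Pfkm, the committing step, at -0.23 (95% interval -1.08 to 0.62, adjusted p = 0.736 by edgeR). Pfkm read 2903, 2692 and 2814 CPM in the controls and 1507, 2866 and 2806 in ACS. Aldoa read 10874, 8786 and 9045 CPM in the controls and 3755, 8898 and 11569.5 in ACS (log2 -0.24, SE 0.487, adjusted p = 0.787 by edgeR). In both genes 1 ACS library was far below the controls and the other two lay among them or above. Without ACS replicate 1 the values were 0.02 for Pfkm and 0.09 for Aldoa. Pgk1, phosphoglycerate kinase, which makes ATP, was at -0.12, and at 0.20 without ACS replicate 1. Bpgm, which makes 2,3-bisphosphoglycerate and is best known from red cells, was at 0.12, and at -0.10 without ACS replicate 1; summed red-cell markers were 683 to 1916 CPM in the controls and 2953 to 17040 in ACS, and their part in the value of Bpgm was not tested.

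Gapdh, the glyceraldehyde-phosphate dehydrogenase often used as a reference transcript, read 1677, 1340.2 and 1421 CPM in the controls and 480.3, 1306 and 1906 in ACS. The highest and the lowest of the 6 libraries were thus both ACS libraries. Its log2 fold change was -0.27 (SE 0.482, 95% interval -1.36 to 0.83, adjusted p = 0.763 by edgeR), and 0.12 without ACS replicate 1. Tpi1, triosephosphate isomerase, was at 0.01. Both have near-identical copies in the rat genome, and no source used here says how reads were divided among copies. The Gapdh row held only 31.5% to 36.4% of the counts of all 10 rows described as this enzyme, and the Tpi1 row 18.9% to 33.8% of 3 rows. With copies summed, log2 was -0.34 for Gapdh and -0.15 for Tpi1.

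In the lower part of the pathway lie phosphoglycerate mutase and enolase, each with a muscle and a ubiquitous gene. Pgam2 (chromosome 14, 86044969 to 86047162) read 1273, 1478 and 1078 CPM in the controls and 649.7, 897 and 1428 in ACS (log2 -0.36, SE 0.374, adjusted p = 0.586 by edgeR; -0.14 without ACS replicate 1). Pgam1 (chromosome 1, 261158261 to 261165808) read 23.0, 22.0 and 17.8 CPM in the controls and 45.4, 44.1 and 32.3 in ACS, so that every ACS library was above every control. The means of Pgam1 were 20.9 ± 2.73 CPM in the controls and 40.6 ± 7.24 in ACS (SD, n = 3 each), and its log2 fold change was 0.95 (SE 0.254, 95% interval 0.37 to 1.53). The adjusted p of Pgam1 was 0.0698 by edgeR and 0.0163 by DESeq2. Leaving out ACS replicate 3 gave a log2 fold change of 1.09 with an adjusted p of 0.0295 by edgeR, in a fit that called 9.72% of all genes higher. limma-voom with quality weights gave 0.96 with an adjusted p of 0.0298, and called 8.23% of all genes higher. Over 20 alternative settings the adjusted p of Pgam1 ran from 0.0163 to 0.250.

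For enolase the sign of the muscle gene rested on ACS replicate 1. Eno3 (chromosome 10, 57278307 to 57283653) read 3598, 4177 and 4240.3 CPM in the controls and 1755, 2716 and 6155 in ACS, so that the lowest and the highest library were both from ACS (log2 -0.18, SE 0.495, adjusted p = 0.854 by edgeR), and without ACS replicate 1 it was at 0.15. Eno1 (chromosome 5, 167288223 to 167299609) read 60.2, 47.1 and 63.2 CPM in the controls and 70.4, 96.0 and 112 in ACS, without overlap. The log2 fold change of Eno1 was 0.71 (SE 0.269, 95% interval 0.10 to 1.32, adjusted p = 0.158 by edgeR), 0.87 without ACS replicate 1, and 0.67 with 2 rows of copies added, of whose sum the Eno1 row held 74.2% to 82.6%.

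Pfkl and Pfkp, the liver and platelet phosphofructokinases, were both above 1 on the log2 scale. Pfkl (chromosome 20, 11393877 to 11415882) read 9.61, 5.51 and 9.46 CPM in the controls and 27.3, 13.2 and 15.6 in ACS, again without overlap (log2 1.19, SE 0.373, 95% interval 0.34 to 2.04). Its adjusted p was 0.102 by edgeR and 0.0430 by DESeq2, and log2 was 0.81 without ACS replicate 1. Pfkp read 2.63, 1.55 and 3.84 CPM in the controls and 13.6, 5.71 and 2.34 in ACS; the groups overlap through ACS replicate 3, and log2 was 1.41 with ACS replicate 1 and 0.59 without it. Aldoc, the brain aldolase, was at 0.669 to 1.61 CPM in all 6 libraries, with a log2 fold change of -0.42.

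Pyruvate kinase of muscle, Pkm, makes the second ATP-yielding step and stands in the table as a gene on chromosome 8 (64481172 to 64502722) and as a short row on chromosome 20 (18058245 to 18060661). The chromosome 8 row read 1799, 1768 and 1312 CPM in the controls and 899.7, 2431 and 2071 in ACS (log2 0.15, adjusted p = 0.859 by edgeR). The chromosome 20 row read 1597, 1622 and 1210.3 CPM in the controls and 1794, 2161 and 2021 in ACS, without overlap (log2 0.43, adjusted p = 0.443 by edgeR). The chromosome 8 row held 33.4% of their sum in ACS replicate 1 and 50.6% to 53.0% in the other 5 libraries, so the division between the rows differed in that library. Values of either row are uncertain for that reason, and the sum of both had a log2 fold change of 0.29 (adjusted p = 0.663 by edgeR).

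Within each library, the ratio of the muscle to the other isoform per length does not depend on how libraries are scaled to each other. The ratio of Pgam2 to Pgam1 was 111, 134 and 121 in the controls and 28.6, 40.7 and 88.5 in ACS. Eno3 to Eno1 was 79.1, 117 and 88.8 in the controls and 33.0, 37.4 and 72.5 in ACS. Pfkm to Pfkl was 252, 407 and 248 in the controls and 46.0, 181 and 150 in ACS. In these 3 of 7 pairs every ACS library was below every control. No share over other pairs of genes was computed to set beside this count. In CPM, Pgam1, Eno1 and Pfkl were each above every control in all ACS libraries, so the ratios are not separate from those rows. On the log2 scale the difference of means was -1.37 for phosphoglycerate mutase, -1.07 for enolase and -1.45 for Pfkm to Pfkl, and without ACS replicate 1 it was -1.02, -0.85 and -0.84. The other 4 pairs overlapped: Pfkm to Pfkp at -1.47, Pygm to Pygb at -0.62, Pygm to Pygl at -1.60 and Aldoa to Aldoc at 0.08. These ratios were given no test, since the smallest p of an exact two-sided permutation test with 3 libraries against 3 is 0.1 and the pairs were listed with earlier results known. The muscle isoform still made up nearly all of each family: its share of the family's FPKM was 99.11% to 99.26% in the controls and 96.63% to 98.88% in ACS for phosphoglycerate mutase, and 98.75% to 99.16% and 97.06% to 98.64% for enolase.

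**Figure D3:**
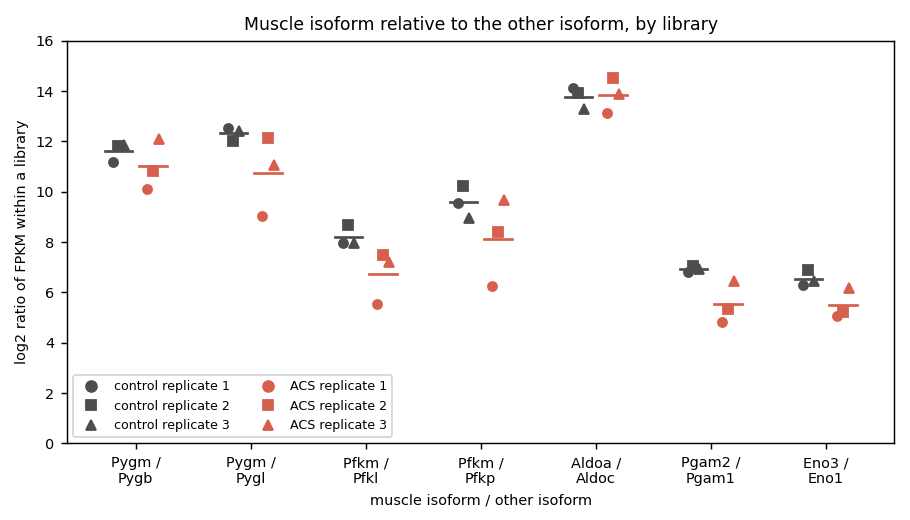
Log2 ratio of the muscle to the other isoform per length (FPKM over FPKM) in each of the 6 libraries for the 7 pairs with values; lines are group means. Control and ACS libraries do not overlap for Pgam2 to Pgam1 (ratios of 111 to 134 against 28.6 to 88.5), Eno3 to Eno1 and Pfkm to Pfkl. No share over other pairs of genes was computed.

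Among the branch genes no row stood out. Fbp2, the muscle fructose-1,6-bisphosphatase, read 27.0, 41.9 and 52.6 CPM in the controls and 20.6, 60.9 and 41.7 in ACS (log2 0.02). Gpd1, the cytosolic glycerol-3-phosphate dehydrogenase, was at -0.20, Gpd2, its mitochondrial partner in the glycerol phosphate shuttle, at -0.24, and Gpd1l at 0.18. Without ACS replicate 1, Gpd1 was at 0.14 and Gpd2 at 0.10. None of these had groups that did not overlap.

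Described over the whole list, 15 rows had a positive and 20 a negative fold change. The median log2 fold change was -0.161 in the glycogen arm, -0.033 in the glycolytic arm and -0.011 over all genes tested. Without ACS replicate 1 these medians were 0.056, 0.209 and -0.002. Split by isoform, the 9 genes listed as muscle isoforms beside a paralogue (Pygm, Phka1, Phkg1, Ppp1r3a, Pfkm, Aldoa, Pgam2, Eno3 and Fbp2; not Pkm, Gys1 or Pgm1) ran from -0.58 to 0.02 with a median of -0.228, and the 7 others (Pygb, Pygl, Pfkl, Pfkp, Aldoc, Pgam1 and Eno1) from -0.42 to 1.71 with a median of 0.954. Without ACS replicate 1 the medians were 0.057 and 0.814. The lists are not matched, since no paralogue of Phka1, Phkg1, Ppp1r3a or Fbp2 is among the 7 others. Ppp1r3c, given above, is in neither list. Outside the 35 rows, the tested paralogues went both ways. Phkg2 was at -0.63, with all ACS libraries below all controls, while Ppp1r3b was at 2.18, Ppp1r3d at 0.36 and Eno2 at 1.31. The medians therefore do not compare matched families. All ACS libraries were above all controls in 5 rows (Pygl, Pfkl, Pgam1, Eno1 and the chromosome 20 row of Pkm), or 14.3% against 16.7% of all genes, and below them in 0 rows against 14.8%. That share is near the background, so it is not read as a result about these rows. The counts depend on scaling: on the deposited FPKM, which is not TMM-scaled, 2 rows were above (Pfkl and Pgam1, against 9.47% of all genes) and 3 below (Pygm, Phkg1 and Pfkm, against 27.3% of all genes), while Pygl and Eno1 overlapped.

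The 3 ACS libraries differed more from each other than the arms did. The median log2 difference from the control mean, over the 35 rows, was -0.895 in ACS replicate 1, -0.090 in replicate 2 and 0.184 in replicate 3, against -0.072, -0.036 and -0.010 over all genes. In 24 of 35 rows, or 68.6%, ACS replicate 1 was the lowest of the 6 libraries, against 32.8% of all genes. Those rows included 12 of 15 in the glycogen arm, 8 of 16 in the glycolytic arm, all 4 tested branch genes, all 9 muscle isoforms and none of the 7 other isoforms. The median for the muscle isoforms was -1.025 in ACS replicate 1 and for the other isoforms 1.116. The summed fast-fibre markers were 76474.5, 87523 and 171879 CPM in ACS replicates 1, 2 and 3, the first 2 below every control and the last above. The Myh1 row gave 42084, 44862.5 and 102503 CPM of these sums. It spans chromosome 10, 53713938 to 53848347, and the listed Myh4 and Myh2 had no row of their own. Whether the row also holds their reads is not known. ACS replicate 1 was the lowest library for 6 of the 10 markers, but Tnnt3, at 7361 CPM, was above every control in it. The mitochondrial share was highest, at 43.4%, in the library where the list was lowest. Their part in these values was not tested.

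**Figure D4:**
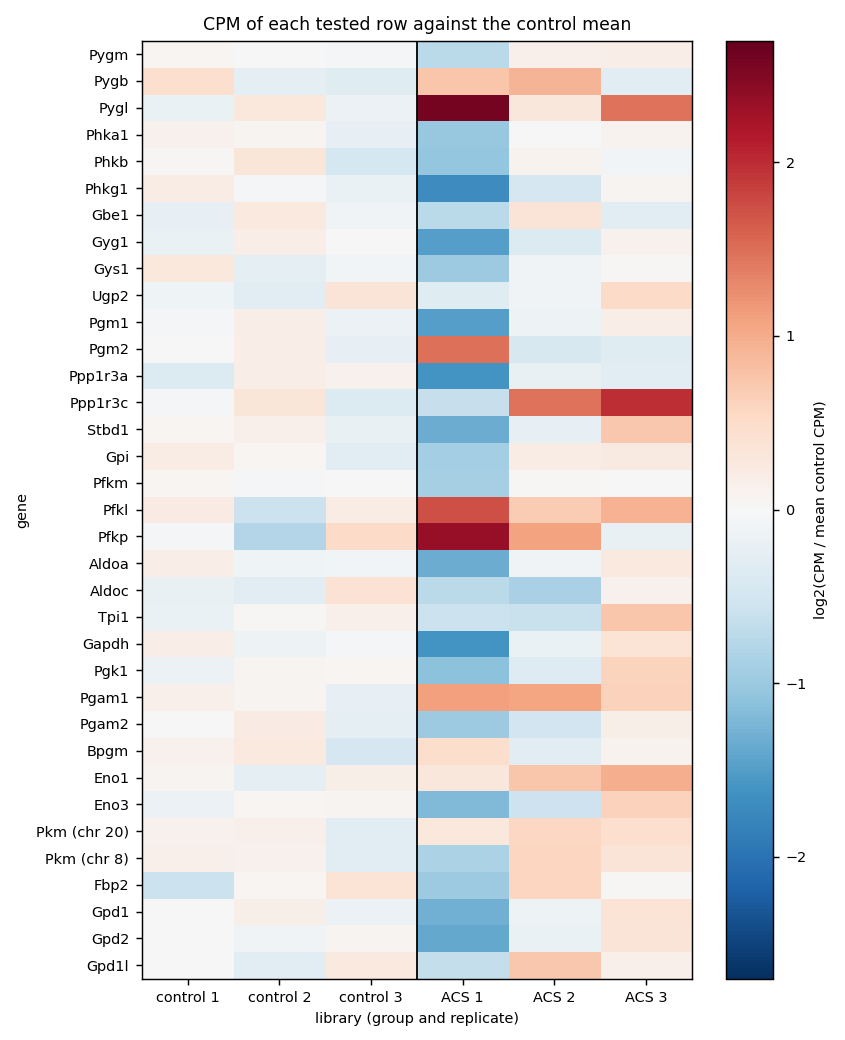
Heat map of the log2 ratio of CPM to the control mean (colour) for each tested row in each of the 6 libraries (columns). The column of ACS replicate 1 is mostly blue (lower); the muscle isoforms have medians of -1.025, -0.105 and 0.103 in ACS replicates 1, 2 and 3, and the other isoforms 1.116, 0.757 and 0.624.

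Genes around the pathway were read from a list of 39 symbols for glucose uptake, hexokinases, regulators of phosphofructokinase, lactate dehydrogenases and glycogen turnover; 27 rows were tested. Of these, 2 were called higher and 0 lower, against 3.43% and 0.707% of all genes. Hk2, the hexokinase of muscle that traps glucose in the cell, read 285, 192 and 232 CPM in the controls and 1459, 933 and 964 in ACS (log2 2.24, SE 0.338, adjusted p = 0.0171 by edgeR). Pfkfb3, which makes the fructose 2,6-bisphosphate that activates phosphofructokinase, read 175, 204 and 98.8 CPM in the controls and 1110.5, 1832 and 1072 in ACS (log2 3.07, SE 0.414, adjusted p = 0.0134 by edgeR). Both genes were higher in all 3 ACS libraries than in any control. Without ACS replicate 1 log2 was 2.00 for Hk2 and 3.19 for Pfkfb3, and both were still called. Neither was called when a control library was left out: the adjusted p by edgeR was 0.121, 0.0980 and 0.0791 for Pfkfb3 and 0.138, 0.139 and 0.115 for Hk2 without control replicate 1, 2 and 3, fits in which 0 genes of the whole table were called.

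Promoters of the list were searched on both strands for 3 motifs. The hypoxia-response core ACGTG was in 14 of the 35 promoters of the list (31 genes), or 40.0%, against 16.6% of all promoters of the same length. It contains a CG, and promoters of the list held a median of 16 CG against 5 over all promoters, so the share is not compared at equal CG content. For the MEF2 site a looser pattern was searched, with its outer bases fixed and any base allowed in the middle. That pattern was in 3 promoters (of Aldoa and Ppp1r3a), or 8.57% against 3.41%. A match to it need not be a MEF2 core, and the share of promoters with such a core was not counted. The E-box CANNTG, which can overlap ACGTG as CACGTG, was in 20 promoters, or 57.1% against 65.5%. A match is a description of these letters and not of a bound site.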

How the data were processed

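Per the submitters' processing notes, reads were handled with HISAT2 2.0.4 and StringTie 1.3.0 on Rnor 6.0; the tool that made the counts and its use of strand are stated in no source used here. The authors deposited whole-number counts and FPKM for 30957 genes in 6 libraries. The deposited FPKM values equalled count over length over library total, within 0.1%, in 100% of 6281 genes checked.

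Counts were tested with edgeR 4.0.16 (R 4.3.3): filterByExpr (minimum count 10, minimum total 15), TMM scaling and the quasi-likelihood F test of 3 ACS against 3 control libraries, with no block and Benjamini-Hochberg adjustment over 12873 genes at 0.05. CPM values use TMM-scaled library sizes. The biological coefficient of variation was 0.381. In counts simulated with 50 changed genes at each size, the test recovered 8% of 2-fold and 84% of 4-fold changes. Of its 155 calls, 7.10% were false. The data gave more calls (442 higher and 91 lower), so a smaller unadjusted p was needed to pass in the simulation. Most changes of 2-fold were thus missed in the simulation, and its shares need not hold for the data. Pairs of libraries differed beyond counting noise (chi-square per degree of freedom at least 38.2), so none was taken as a duplicate of another; this does not show that they are independent samples. Scripts were tested on simulated data.

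Alternatives were DESeq2 1.42.0, limma 3.58.1 on counts (voom) and on log2 FPKM plus 1 or 0.1, other scalings and filters, a replicate block, a term for the mark "ji" that 2 library descriptions carry, and each library left out. Leaving out both marked libraries, quality weights and summed copies were added after seeing the data. All members are named. Of the pathway neighbours, those called and the tested paralogues of the muscle isoforms that the isoform lists left out are named. Other genes named are only markers and a few genes in the closing section, chosen after their values were seen. The members and lists were chosen with earlier results of these data known. Motifs were counted in RefSeq promoters (250 bases, GRCr8).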

Additional observations from a re-analysis of the deposited data

How the results depend on the processing

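The number of genes called higher was 442 and called lower 91. Higher calls were 1320 with DESeq2, 262 with limma-voom, 249 and 199 with limma on log2 FPKM plus 1 and plus 0.1, 755 with no filter, 248 with a term for the mark "ji", 1059 with quality weights and 171 without both marked libraries, and 0 to 1286 when 1 library was left out. Lower calls were 228 with scaling by library totals, 429 with DESeq2, 268 with limma on log2 FPKM plus 1, 153 with no filter, 32 with the "ji" term, 356 with quality weights and 30 without both marked libraries, and 0 to 398 when 1 library was left out. Members called higher were 0, and became 3 with DESeq2, 1 with quality weights and 0 to 1 when 1 library was left out. The medians of the arms moved by less than the SD of the medians of the 3 ACS libraries in every alternative run. Both changed sign without ACS replicate 1, from -0.161 to 0.056 in the glycogen arm and from -0.033 to 0.209 in the glycolytic arm. The isoform ratios were rerun with 1 library left out and as ratios of counts. Neither can move a difference of means beyond the spread between replicates, so these runs do not test the ratios. Scaling by library totals shifted the median of all genes to -0.32.

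Same-numbered control and ACS libraries had correlations of -0.063, 0.011 and 0.040 between their deviations from the group means, so the numbers gave no sign of pairing. A replicate block called 442 genes higher, 63 lower and 0 members; under it Tpi1 was -0.14 and Fbp2 -0.062.

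Of the 35 member rows, 21 changed sign in at least 1 alternative, none of them called on either side, and the cause was not tested. When 1 library was left out, the ranges were Pygm -0.23 to 0.16, Phka1 -0.42 to 0.057, Phkb -0.50 to 0.0067, Gbe1 -0.54 to 0.056, Ugp2 -0.21 to 0.26, Pgm1 -0.66 to 0.029, Pgm2 -0.39 to 0.80, Stbd1 -0.68 to 0.32, Gpi -0.25 to 0.22, Pfkm -0.41 to 0.015, Aldoa -0.60 to 0.095, Tpi1 -0.60 to 0.23, Gapdh -0.73 to 0.12, Pgk1 -0.68 to 0.20, Bpgm -0.11 to 0.26, Eno3 -0.85 to 0.15, Pkm (chromosome 8) -0.16 to 0.47, Fbp2 -0.41 to 0.34, Gpd1 -0.61 to 0.14, Gpd2 -0.66 to 0.10 and Gpd1l -0.23 to 0.46. Without ACS replicate 1, 16 of 35 changed sign. Quality weights gave Pygm 0.017, Gbe1 0.046, Pgm2 -0.19, Gpi 0.032, Tpi1 -0.24 and Bpgm -0.091. Library totals gave Ugp2 -0.22, Tpi1 -0.29, Bpgm -0.23, Pkm (chromosome 8) -0.10, Fbp2 -0.24 and Gpd1l -0.085. FPKM plus 1 gave Ugp2 -0.26, Pgm2 -0.020, Tpi1 -0.47, Bpgm -0.21, Pkm (chromosome 8) -0.29, Fbp2 -0.37 and Gpd1l -0.22. FPKM plus 0.1 gave Ugp2 -0.27, Pgm2 -0.070, Tpi1 -0.47, Bpgm -0.21, Pkm (chromosome 8) -0.29, Fbp2 -0.39 and Gpd1l -0.24. TMM without mitochondrial and haemoglobin rows gave Tpi1 -0.021 and Fbp2 -0.0061, no filter -0.024 and -0.0033, and limma-voom -0.15 and -0.036. Tpi1 was -0.0063 with DESeq2, -0.15 with the "ji" term and with copies summed, and -0.53 without both marked libraries, where Bpgm was -0.056 and Pkm (chromosome 8) -0.10.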

Other observations

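None of the slow-fibre genes was called, and all had negative fold changes. Over 9 tested genes the median log2 fold change was -0.917, 4 were lower at an unadjusted p under 0.05 in edgeR's test (against 7.98% of all genes), and in 5 all ACS libraries were below all controls (against 14.8% of all genes). Myl3, the slow-fibre and ventricular myosin light chain, had 314 ± 99.7 CPM in the controls and 114 ± 57.7 in ACS (SD, n = 3 each), and its log2 fold change was -1.46 (SE 0.421, adjusted p = 0.0827 by edgeR). Summed slow-fibre CPM were 3407 to 4444 in the controls and 1882 to 3387 in ACS, while the fast-fibre sum spanned the controls.

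Among 11 tested hypoxia-inducible genes, 1 was called higher by edgeR, against 3.43% of all genes, and 0 lower, against 0.707%, with a median of 0.219. Adm, adrenomedullin, a vasodilator peptide, read 1.90, 3.58 and 2.81 CPM in the controls and 43.8, 15.3 and 26.7 in ACS. Its log2 fold change was 3.37 (SE 0.453, adjusted p = 0.0134 by edgeR), and 2.92 without ACS replicate 1. Vegfa was at 0.34 (adjusted p = 0.617).

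Around the pathway, values that did not pass the test went both ways. Hk1, the ubiquitous hexokinase, had a log2 fold change of 2.10 (adjusted p = 0.0522 by edgeR) and Slc2a1, a ubiquitous glucose transporter, 2.49 (adjusted p = 0.0566 by edgeR), each with all ACS libraries above all controls. ACS replicate 1 was the highest for both: Hk1 read 65.5, 20.6 and 20.1 CPM in ACS replicates 1 to 3 and Slc2a1 65.3, 20.9 and 15.2. Without it Hk1 was at 1.3 (adjusted p = 0.0243 by edgeR) and Slc2a1 at 1.58 (adjusted p = 0.0504 by edgeR). Pfkfb1, another isoform of the Pfkfb3 enzyme family, was at -1.36 (adjusted p = 0.0869 by edgeR; -1.01 and 0.0369 without ACS replicate 1) and Ldhb, the lactate dehydrogenase of oxidative tissue, at -0.98 (adjusted p = 0.13 by edgeR), with all ACS libraries below all controls. Isoforms thus had opposite signs within the Pfkfb family, and the difference between them was not tested.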
